A study of Mus musculus with 4 samples.

Results

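Interferon-inducible GTPase genes were followed in microglia of the mouse brain after irradiation. They are the guanylate-binding protein genes Gbp2, Gbp3 and Gbp7 and the immunity-related GTPase genes Irgm1, Irgm2 and Igtp. These 6 genes were taken by name from the 27998 genes of the deposited matrices, and all 6 were found in every library. Microglia, the resident macrophages of the brain, had been isolated from C57BL/6 mice and profiled by droplet single-cell RNA sequencing, in which each captured transcript is counted once through a unique molecular identifier (UMI). The 4 libraries came from mice irradiated at 6 h before collection, sham mice at 6 h, mice irradiated at 1 week before collection and sham mice at 1 week. Irradiation was a single dose of 8 Gy to the whole brain at postnatal day 21, and the sham groups were unirradiated controls of the same strain. No genetic change is named for any group, and no sex is given. The labels give the tissue as brain, whereas the design text speaks of hippocampal microglia, and both the 6 h and the 1 week libraries carry an age label of day 21. Each library pooled 4 mice and each group had 1 library, so no difference below has a replicate check and none carries a p-value.

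Guanylate-binding proteins are large GTPases of the dynamin superfamily that assemble on the vacuoles and outer membranes of intracellular parasites and bacteria. Immunity-related GTPases fall into effectors, which attack such vacuoles, and the Irgm proteins, which sit on the cell's own membranes and hold the effectors in their inactive, GDP-bound state there. Both families are low at rest and are induced by interferon gamma and by type I interferons, which act through different receptors and different promoter elements. Isg15, a ubiquitin-like protein, is a widely used readout of the type I response.

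The promoters are shown first because the members differ below in how closely they followed Isg15, although all of them carry the same short element. RefSeq promoter windows of GRCm38.p6, from 250 bases before to 50 bases after the start site, were found for all 6 members and for Isg15. They were searched on both strands for the core of the interferon-stimulated response element, GAAANNGAAA or its reverse TTTCNNTTTC, and for the gamma-activated sequence TTCNNNGAA, which reads the same on both strands. All 6 member windows held the response-element core, against 3.44% of 32851 promoters in the same table and 3.99% of 27025 genes. The core was not particular to the members. Among genes with a window, 15 of 26 listed type I response genes and 5 of 9 other inducible GTPases also had it. The stretches around it are printed on the strand of the gene, with capitals marking the core, or cores that overlap each other.
Gbp2, chr3:142620584-142620633: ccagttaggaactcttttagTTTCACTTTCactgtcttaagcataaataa
Gbp3, chr3:142559979-142560034: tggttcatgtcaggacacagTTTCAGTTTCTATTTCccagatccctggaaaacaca
Gbp7, chr3:142530263-142530312: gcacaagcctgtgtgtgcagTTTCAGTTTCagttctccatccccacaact
Irgm1, chr11:48871415-48871470: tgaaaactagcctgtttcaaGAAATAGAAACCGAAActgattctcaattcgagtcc
Irgm2, chr11:58214893-58214942: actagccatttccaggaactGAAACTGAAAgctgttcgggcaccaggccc
Igtp, chr11:58199502-58199551: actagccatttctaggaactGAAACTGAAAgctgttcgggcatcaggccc
Isg15, chr4:156200855-156200916: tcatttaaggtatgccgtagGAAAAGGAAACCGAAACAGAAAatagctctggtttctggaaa

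The first core began 59 bases before the start site in Gbp2, 45 in Gbp3 and 53 in Gbp7. It began 30 bases before it in Irgm1, 64 in Irgm2 and 34 in Igtp, and 78 bases before it in Isg15. In all 3 Gbp genes the core lay on the strand opposite to the gene, and in all 3 immunity-related GTPases on the same strand. The gamma-activated sequence was present in the windows of Gbp7, Irgm2 and Igtp, with 2 matches in Gbp7, and in 8.30% of all promoters. It was not among the letters of the Gbp2, Gbp3 and Irgm1 windows. The windows of Irgm2 and Igtp were 92.1% identical over 265 aligned bases, whereas the other pairs of members ranged from 58.6% to 67.2%. The alignment of Irgm2 and Igtp also held 70 gap positions, which this percentage leaves out. A match describes the letters of the window and is not a measured binding site.

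**Figure D1:**
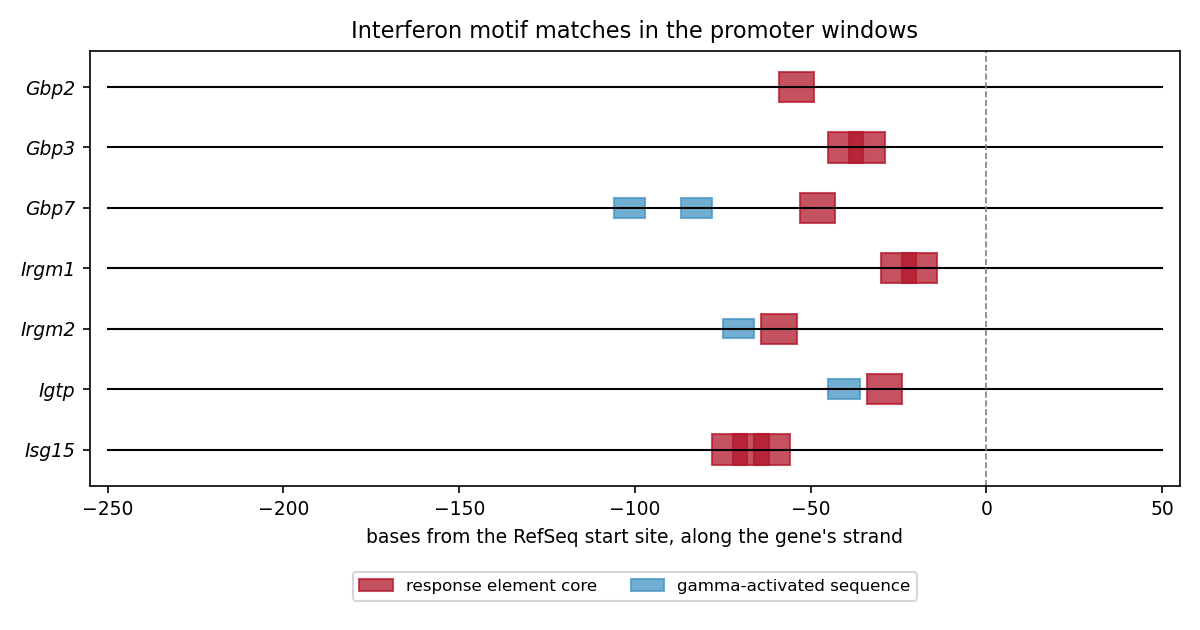
Position in bases from the start site (horizontal axis) of each match to the response-element core and to the gamma-activated sequence in the promoter windows of the 6 members and Isg15 (1 row per gene). The first response-element core lies between 30 and 64 bases before the start site in the members, and the gamma-activated sequence is present in Gbp7, Irgm2 and Igtp.

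Gbp2, Gbp3 and Gbp7 lie in 1 cluster on the plus strand of chromosome 3, with Gbp2b between Gbp3 and Gbp2, and Irgm1, Irgm2 and Igtp lie on chromosome 11, in the GENCODE vM21 annotation of GRCm38. Gbp2 spans 142620602 to 142638008, Gbp3 142560026 to 142573209 and Gbp7 142530342 to 142550149. Irgm1 spans 48861968 to 48871683 on the minus strand, and Irgm2 (58199618 to 58222782) and Igtp (58199556 to 58207591) overlap in their exons on the plus strand. Of the 50-base stretches of their transcripts, 7.77% in Irgm2 and 11.8% in Igtp occur in another gene, chiefly in each other, and 12.7% in Gbp7, chiefly in the pseudogene Gm43802. The split of reads between Irgm2 and Igtp, and the count of Gbp7, are therefore less certain than those of Gbp2, Gbp3 and Irgm1, where the share was 2.03%, 3.75% and 0.31%.

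The files held 8486 barcodes, against 8095 cells stated in the design text, and 41 barcodes occurred in more than one library. After filtering, 8215 of 8324 cells were microglia-like, with 1558 to 2625 cells, 5566031 to 9660248 UMIs and a median of 3433.5 to 3585.5 UMIs per cell in a library. All 9 microglia markers were detected in each library, and the p53 target Cdkn1a had 21324 UMIs in the irradiated library at 6 h against 505 in its sham, and 16917 UMIs in the irradiated library at 1 week against 314 in its sham. The most common cluster among the microglia-like cells was not the same in any 2 libraries. It was cluster 3 in the irradiated library at 6 h (58.0%), cluster 0 in the sham at 6 h (46.2%), cluster 1 in the irradiated library at 1 week (58.4%) and cluster 2 in the sham at 1 week (48.3%). Cells outside the microglia-like class were 74 of 1978 in the irradiated library at 6 h, against 21 of 2646 in its sham, and 9 of 2137 in the irradiated library at 1 week, against 5 of 1563 in its sham. They formed a cluster led by Pf4 and Vtn and one led by H2-Aa and H2-Eb1.

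The members did not move as a block. Gbp2 was 3.24-fold higher in irradiated than in sham microglia at 6 h, while Gbp7, Irgm1 and Irgm2 were 1.87-fold, 1.64-fold and 1.59-fold lower. At 1 week Gbp7 and Irgm1 were 1.54-fold and 1.57-fold higher in the irradiated library, and Gbp3 and Igtp stayed within 1.5-fold at both times. Levels are UMIs summed over the microglia-like cells of a library and scaled to CPM, the number per 1000000 UMIs of that library's microglia-like cells, with 95% intervals that cover counting error only. Lower values of such a sum can come from fewer cells with the transcript or from less transcript per cell, and the sums alone cannot tell these apart.

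**Figure D2:**
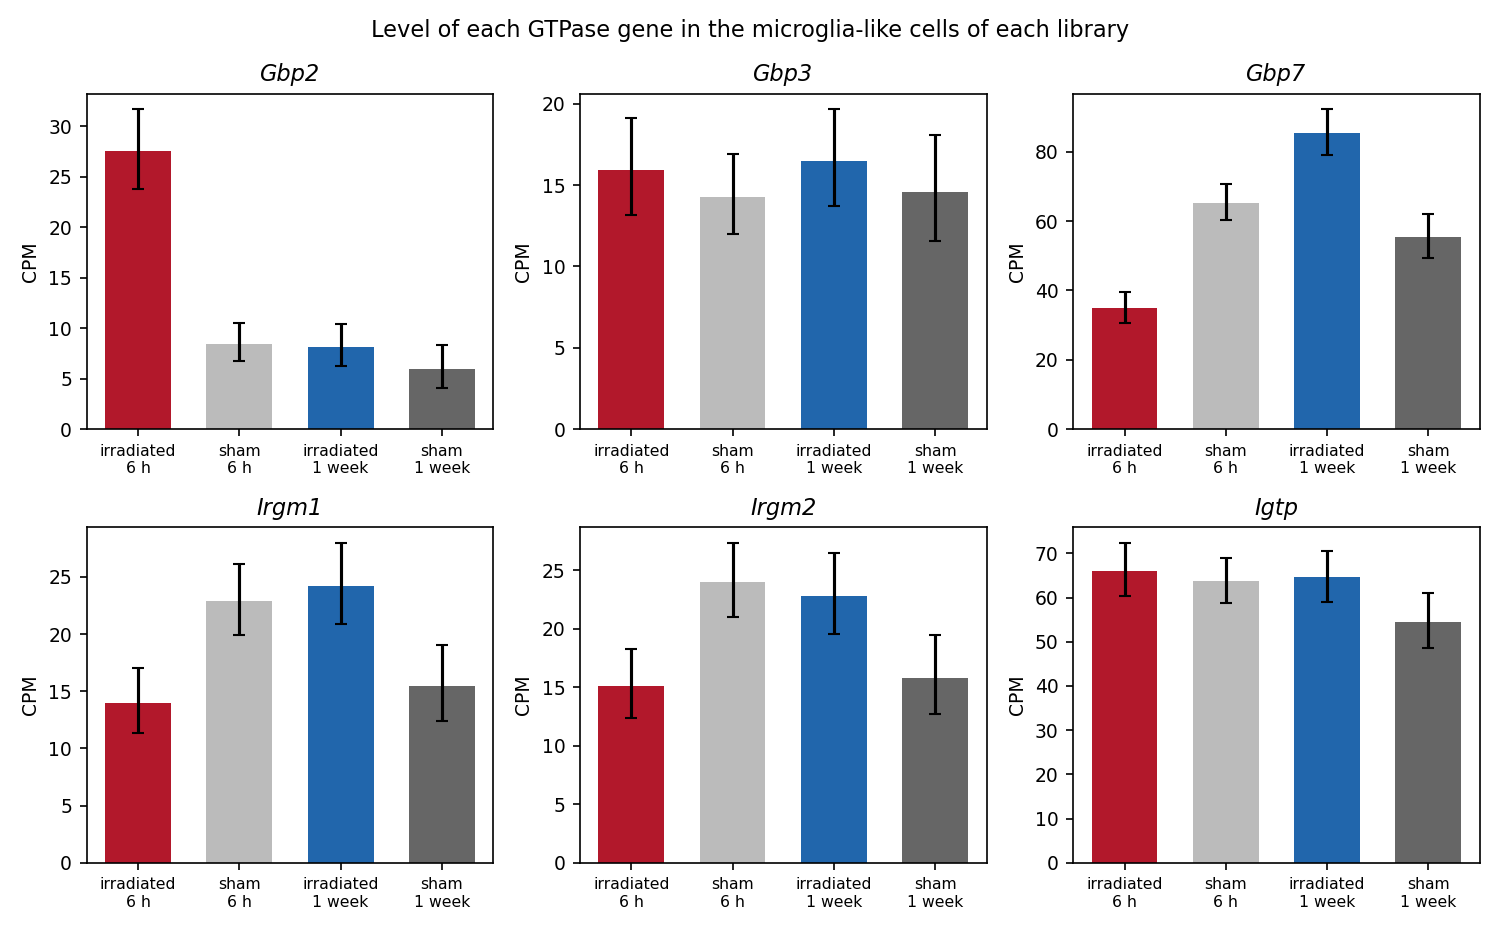
CPM (vertical axis, from 0) of the 6 members in the microglia-like cells of each of the 4 libraries, 1 bar per library, with exact Poisson 95% intervals for counting error. Gbp2 stands at 27.5 CPM in the irradiated library at 6 h and at 5.93 to 8.49 in the others, whereas Gbp7 is lowest there at 34.9 CPM and highest in the irradiated library at 1 week at 85.4.

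Gbp2, whose protein coats the vacuole of Toxoplasma in interferon-treated mouse cells, had 27.5 CPM in the irradiated library at 6 h (23.8 to 31.7, 197 UMIs) against 8.49 in the sham at 6 h (6.75 to 10.5, 82 UMIs). It had 8.12 CPM in the irradiated library at 1 week (6.22 to 10.4, 62 UMIs) against 5.93 in the sham at 1 week (4.08 to 8.33, 33 UMIs). The irradiated library at 6 h thus stood apart from the other 3, whose neighbouring intervals overlapped. The log2 fold at 6 h was 1.70 (1.32 to 2.09), and 98.2% of the genes measured had a lower one. At 1 week it was 0.45 (-0.18 to 1.11), an interval that includes no difference. The largest number of Gbp2 UMIs in a single cell was 16 in the irradiated library at 6 h and 2 in its sham.

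Gbp7, a member of the same chromosome 3 cluster, had 34.9 CPM in the irradiated library at 6 h (30.7 to 39.5, 250 UMIs) against 65.3 in the sham at 6 h (60.3 to 70.6, 631 UMIs). It had 85.4 CPM in the irradiated library at 1 week (78.9 to 92.2, 652 UMIs) against 55.5 in the sham at 1 week (49.5 to 62.1, 309 UMIs). Irradiated microglia were therefore the lowest library at 6 h and the highest at 1 week. The sham libraries between them overlapped in their intervals, but their log2 fold, 1 week over 6 h, was -0.23 (-0.44 to -0.04). The log2 fold was -0.90 (-1.12 to -0.69) at 6 h and 0.62 (0.42 to 0.82) at 1 week. Between the irradiated libraries, the later one was higher by 1.29 (1.08 to 1.505) on the log2 scale.

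Irgm1, which regulates the effector GTPases from Golgi and lysosomal membranes, had 14.0 CPM in the irradiated library at 6 h (11.4 to 17.0, 100 UMIs) against 22.9 in its sham (19.96 to 26.1, 221 UMIs). It had 24.2 CPM in the irradiated library at 1 week (20.9 to 28.0, 185 UMIs) against 15.5 in its sham (12.4 to 19.1, 86 UMIs). The libraries fell into a higher pair, irradiated at 1 week and sham at 6 h, and a lower pair, sham at 1 week and irradiated at 6 h, with overlapping intervals within each pair. The log2 fold was -0.71 (-1.07 to -0.36) at 6 h and 0.65 (0.27 to 1.03) at 1 week.

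Irgm2, a second regulator of this kind, had 15.1 CPM in the irradiated library at 6 h (12.4 to 18.2, 108 UMIs) against 24.0 in its sham (21.0 to 27.3, 232 UMIs). It had 22.8 CPM in the irradiated library at 1 week (19.5 to 26.4, 174 UMIs) against 15.8 in its sham (12.7 to 19.5, 88 UMIs). The same higher and lower pairs of libraries were seen as for Irgm1. The log2 fold was -0.67 (-1.01 to -0.33) at 6 h and 0.53 (0.15 to 0.91) at 1 week, the second of these being under the 1.5-fold limit.

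Igtp, the third regulator, also known as Irgm3, had 66.1 CPM in the irradiated library at 6 h (60.3 to 72.3, 473 UMIs) against 63.8 in its sham (58.8 to 69.0, 616 UMIs). It had 64.5 CPM in the irradiated library at 1 week (59.0 to 70.5, 493 UMIs) against 54.4 in its sham (48.5 to 60.9, 303 UMIs). All neighbours in the order of levels overlapped in their intervals, and the log2 fold was 0.05 (-0.12 to 0.23) at 6 h and 0.25 (0.04 to 0.46) at 1 week. Igtp therefore did not share the lower level of Irgm2 at 6 h, although their promoter windows are alike where they align and they share part of their exons.

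Gbp3, the neighbour of Gbp7, had 15.9 CPM in the irradiated library at 6 h (13.1 to 19.1, 114 UMIs) against 14.3 in its sham (12 to 16.9, 138 UMIs). It had 16.5 CPM in the irradiated library at 1 week (13.7 to 19.6, 126 UMIs) against 14.6 in its sham (11.6 to 18.1, 81 UMIs). All neighbouring intervals overlapped, and the log2 fold was 0.16 (-0.21 to 0.53) at 6 h and 0.18 (-0.23 to 0.60) at 1 week.

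**Figure D3:**
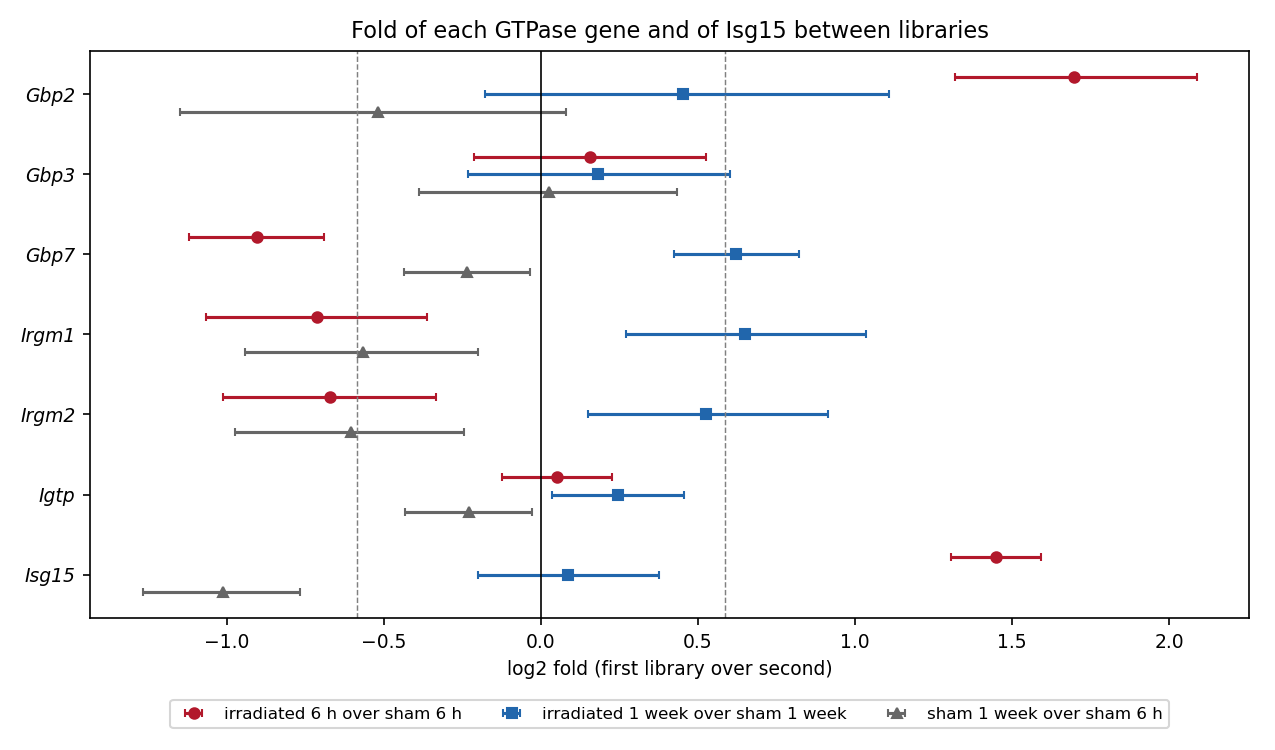
Log2 fold (horizontal axis) of the 6 members and Isg15 in 3 comparisons (irradiated over sham at 6 h, irradiated over sham at 1 week, sham at 1 week over sham at 6 h), with 95% intervals for counting error and dashed lines at 1.5-fold. Gbp2 and Isg15 are at 1.70 and 1.45 at 6 h, and Gbp7, Irgm1 and Irgm2 lie on opposite sides of 0 at 6 h and at 1 week.

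A gene was counted as higher or lower from 1.5-fold, among genes with at least 50 UMIs over both libraries. At 6 h, 1 of the 6 members was higher (Gbp2) and 3 were lower (Gbp7, Irgm1 and Irgm2) in irradiated microglia, against 9.03% and 9.09% of 9885 genes. The median log2 fold was -0.31 over the members and -0.06 over all genes measured. At 1 week, 2 of 6 were higher (Gbp7 and Irgm1) and none lower, against 3.98% and 3.10% of 9493 genes, with a median of 0.49 over the members and 0.04 over all genes. The summed members had 173.6 CPM in the irradiated library at 6 h (164.1 to 183.5) against 198.8 in its sham (190.0 to 207.8). They had 221.5 CPM in the irradiated library at 1 week (211.1 to 232.3) against 161.7 in its sham (151.3 to 172.6). Gbp2 made up 15.9% of the member UMIs in the irradiated library at 6 h and 3.66% to 4.27% in the other libraries.

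The sham libraries also differed from each other. In sham microglia at 1 week relative to sham at 6 h, 1 of 6 members was past 1.5-fold, Irgm2 at -0.60 (-0.97 to -0.24), against 4.81% of 9704 genes lower and 2.95% higher. Irgm1 was at -0.57 (-0.94 to -0.20) and Gbp2 at -0.52 (-1.15 to 0.08). Gbp7 was at -0.23 (-0.44 to -0.04) and Igtp at -0.23 (-0.43 to -0.03). Isg15 was lower by more, at -1.01 (-1.27 to -0.77). Of 30 measured genes of the type I response, 24 were lower and 1 higher in the later sham, with a median log2 fold of -1.34. The 2 sham libraries thus differed widely in interferon response genes, which limits how each irradiated library can be read against its sham. For Irgm1 and Irgm2 the difference between shams was thus close in size to that between irradiated and sham libraries at either time. Set against the sham of the other time, which also changes the time, irradiated microglia at 6 h had Gbp2 at 2.22 (1.68 to 2.79), Gbp7 at -0.67 (-0.91 to -0.42), Irgm1 at -0.14 (-0.58 to 0.29) and Irgm2 at -0.07 (-0.49 to 0.36). That gave 1 member higher and 1 lower, against 11.9% and 9.34% of 9486 genes. Irradiated microglia at 1 week set against the sham at 6 h had 0 of 6 members past the limit, against 3.82% of 9896 genes higher and 4.74% lower, with Gbp7 the furthest at 0.39 (0.23 to 0.55). Past the limit against both shams were Gbp2 and Gbp7 in irradiated microglia at 6 h, higher and lower.

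Between the irradiated libraries, 3 of 6 members were past 1.5-fold higher at 1 week than at 6 h (Gbp7, Irgm1 at 0.79 and Irgm2 at 0.59, which is 0.54 and within the limit when libraries are scaled by the median ratio) and 1 was lower (Gbp2 at -1.76, from -2.20 to -1.34), against 9.06% and 10.7% of 9728 genes. Igtp was at -0.03 and Gbp3 at 0.05. Isg15 was at -2.38 (-2.58 to -2.18), the direction of Gbp2 and not that of Gbp7. These comparisons share libraries, so they are not separate evidence.

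Most cells had no UMI of a given member, and shares of cells were compared after thinning each cell to 2000 UMIs, leaving out shallower cells. This kept 1852 irradiated cells (52 left out) and 2541 sham cells (84 left out) at 6 h, and 2026 irradiated cells (102 left out) and 1369 sham cells (189 left out) at 1 week. A Gbp2 UMI was found in 2.81% of irradiated cells at 6 h against 1.46% of sham cells (4.36% against 2.86% without thinning), and in 1.43% of irradiated cells at 1 week against 1.46% of sham cells (2.40% against 1.60%). The 3.24-fold difference in Gbp2 level at 6 h therefore went with a smaller difference in the share of cells that had it. A Gbp7 UMI was found in 7.29% of irradiated cells at 6 h against 11.7% of sham cells (10.9% against 19.6% without thinning), and in 16.2% of irradiated cells at 1 week against 9.28% of sham cells (24.6% against 16.6%).

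Irgm1 UMIs were in 2.59% of irradiated cells at 6 h against 4.64% of sham cells (4.83% against 7.31% without thinning), and in 4.34% of irradiated cells at 1 week against 2.56% of sham cells (7.61% against 5.01%). Irgm2 UMIs were in 2.92% of irradiated cells at 6 h against 4.76% of sham cells (5.46% against 8.00% without thinning), and in 4.29% of irradiated cells at 1 week against 3.07% of sham cells (7.85% against 5.58%). For both genes, as for Gbp7, the shares followed the levels. Igtp UMIs were in 10.8% of irradiated cells at 6 h against 11.3% of sham cells (18.6% against 19.7% without thinning), and in 12.04% of irradiated cells at 1 week against 9.79% of sham cells (20.3% against 16.9%). Gbp3 UMIs were in 3.56% of irradiated cells at 6 h against 2.60% of sham cells (5.36% against 4.95% without thinning), and in 3.31% of irradiated cells at 1 week against 2.19% of sham cells (5.73% against 4.75%).

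At least 1 member was seen in 24.7% of irradiated cells at 6 h against 29.9% of sham cells, and in 34.7% of irradiated cells at 1 week against 24.8% of sham cells (37.7% against 46.6% and 50.9% against 39.5% without thinning). At 2000 UMIs a share of this size depends on depth, and a cell without a UMI is not shown to lack the transcript. No cell class in the files is known to lack these GTPases, so the level of free RNA was read from P2ry12, a microglial receptor. In the irradiated library at 6 h, 1 of 8 cells of the H2-Aa cluster, with a median of 3103.5 UMIs, had a P2ry12 UMI, against 96.6% of microglia-like cells, with a median of 3550.5. In the Pf4 cluster of the same library, 41 of 66 cells had one, with a median of 1741 UMIs. How much free RNA the GTPase shares hold is therefore not known from these cells.

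The members differed in how far they followed Isg15 from cell to cell. After thinning, 200 of 1852 irradiated cells at 6 h had an Isg15 UMI, against 166 of 2541 sham cells, and 84 of 2026 irradiated cells at 1 week, against 53 of 1369 sham cells. Every member was seen in a larger share of cells with Isg15 than of cells without it in all 4 libraries. For Gbp2 the intervals of the share with and without Isg15 were apart in 4 of 4 libraries, for Igtp in 3, for Irgm1 in 2 and for Gbp3 in 1, and for Gbp7 and Irgm2 they overlapped in every library. At 1 week Gbp2 was in only 6 of 84 irradiated and 4 of 53 sham cells with Isg15. How many of all genes had a larger share with Isg15, or intervals apart, was not counted, so these counts do not rank the members. Overlap does not show that Gbp7 and Irgm2 failed to follow Isg15. Their log2 folds with over without Isg15 had intervals above 0 in some libraries. In irradiated cells at 6 h, 96.6% of the genes measured had a lower fold than Gbp7 and 97.3% a lower one than Irgm2. In sham cells at 6 h these were 84.7% and 97.8%. Cells of 1 library are not replicates, so these values describe the libraries, and a cell without an Isg15 UMI at this depth is not shown to lack the transcript.

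**Figure D4:**
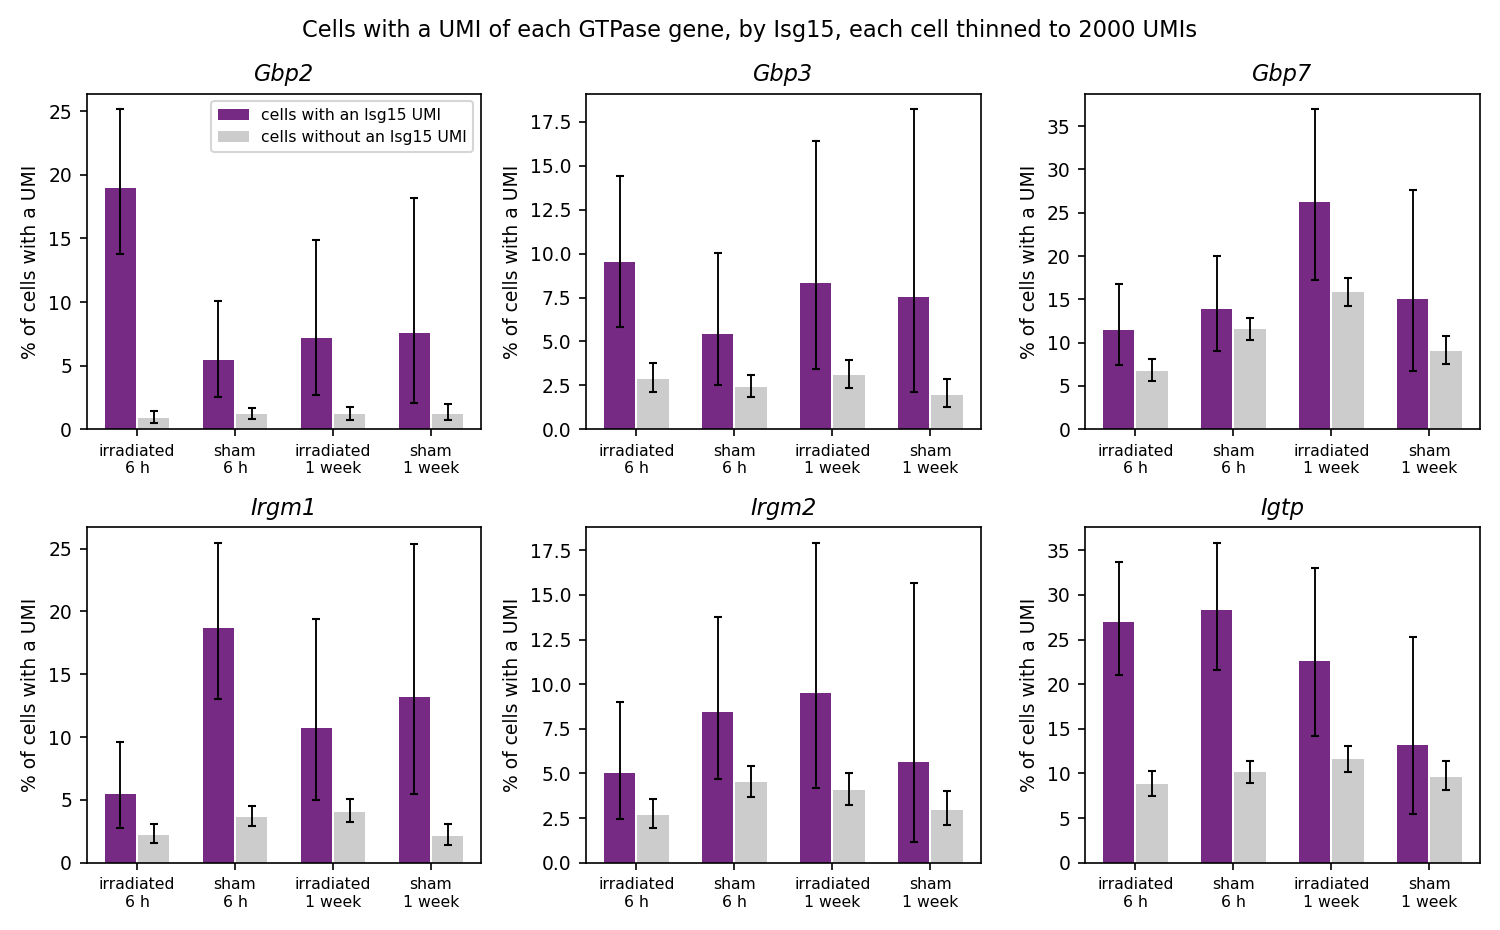
Percent of cells with a UMI of each member (vertical axis) among cells with and without an Isg15 UMI in each of the 4 libraries, after thinning each cell to 2000 UMIs, with exact binomial 95% intervals. Gbp2 is at 19.0% with Isg15 and 0.85% without it in the irradiated library at 6 h, and Gbp7 at 11.5% and 6.78%.

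In irradiated microglia at 6 h, a Gbp2 UMI was found in 19.0% of cells with Isg15 and in 0.85% of cells without it. Cells with Isg15 were 10.8% of the cells and held 82.7% of the Gbp2 UMIs, 81 against 17 in the cells without it. The log2 fold between the cells was 5.30 (4.53 to 6.15), and 99.9% of the genes measured had a lower one. In the sham library at 6 h the shares were 5.42% and 1.18%, with a log2 fold of 2.44 (1.29 to 3.48) on 40 UMIs, below the minimum of 50. At 1 week the shares were 7.14% and 1.18% in the irradiated library, and 7.55% and 1.22% in its sham.

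The share of cells with Gbp2 was also larger with more Isg15 UMIs in irradiated microglia at 6 h. It was 0.85% of 1652 cells with none, 9.80% of 102 cells with 1, 22.2% of 27 cells with 2 and 31.0% of 71 cells with 3 or more. In the sham library at 6 h it was 1.18% of 2375 cells with none, 0% of 109 cells with 1 (up to 3.33%), 8.00% of 25 cells with 2 and 21.9% of 32 cells with 3 or more. The counts in the middle bins were of 10 cells or fewer.

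Igtp was seen in 27.0% of cells with Isg15 and 8.84% of cells without it in irradiated microglia at 6 h, a log2 fold of 2.10 (1.70 to 2.50). In the sham library at 6 h the shares were 28.3% and 10.1%, a log2 fold of 1.94 (1.53 to 2.32). The intervals of both libraries at 6 h overlapped, and the level of Igtp over all cells hardly differed between them. At 1 week the shares were 22.6% and 11.6% in the irradiated library and 13.2% and 9.65% in its sham.

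Irgm1 was seen in 5.50% of cells with Isg15 and 2.24% of cells without it in irradiated microglia at 6 h, a log2 fold of 1.30 (0.18 to 2.30) on 48 UMIs. In the sham library at 6 h the shares were 18.7% and 3.66%, a log2 fold of 2.43 (1.82 to 3.02). The fold of Irgm1 with Isg15 was therefore larger in sham than in irradiated cells at 6 h, and that of Gbp2 smaller, and neither difference between the libraries was tested. Among sham cells with 3 or more Isg15 UMIs, 37.5% of 32 had Irgm1, against 11.3% of 71 such irradiated cells. At 1 week the shares were 10.7% and 4.07% in the irradiated library and 13.2% and 2.13% in its sham.

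Gbp3 was seen in 9.50% of cells with Isg15 and 2.85% of cells without it in irradiated microglia at 6 h, a log2 fold of 1.95 (1.15 to 2.71), and in 5.42% and 2.40% in the sham at 6 h, a log2 fold of 1.47 (0.38 to 2.41). Gbp7 was seen in 11.5% and 6.78% of irradiated cells at 6 h, a log2 fold of 0.89 (0.22 to 1.51), and in 13.9% and 11.5% of sham cells, a log2 fold of 0.37 (-0.24 to 0.93). At 1 week Gbp7 was seen in 26.2% and 15.8% of irradiated cells, a log2 fold of 0.68 (0.02 to 1.28). Irgm2 had log2 folds of 1.05 (-0.06 to 2.02) in irradiated and 1.04 (0.19 to 1.81) in sham cells at 6 h. Among members with 50 UMIs, 5 of 5 in irradiated cells at 6 h, 4 of 5 in sham cells at 6 h, 5 of 5 in irradiated cells at 1 week and 2 of 2 in sham cells at 1 week were past 1.5-fold higher with Isg15. Of all genes measured, 7.61% were past the limit higher and 17.5% lower in irradiated cells at 6 h, against 7.87% and 14.7% in sham cells at 6 h. At 1 week the shares were 11.3% and 18.7% in irradiated cells, against 12.6% and 23.6% in sham cells.

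The differences between libraries were also taken among cells without and with an Isg15 UMI. Among cells without an Isg15 UMI, Gbp2 at 6 h was at -0.25 (-1.20 to 0.67) in irradiated over sham cells, whereas Gbp7 was at -0.89 (-1.21 to -0.58), Irgm1 at -0.76 (-1.35 to -0.19) and Irgm2 at -0.81 (-1.35 to -0.30). The higher Gbp2 of irradiated microglia at 6 h was thus not seen in the cells without Isg15, and the lower Gbp7, Irgm1 and Irgm2 were. The Gbp2 value rests on 17 UMIs against 29, and its interval reaches past 1.5-fold in both directions. Cells without Isg15 were 1652 of 1852 irradiated and 2375 of 2541 sham cells, so the other 3 folds rest largely on the same cells as those over all cells. Leaving out only the cells with 3 or more Isg15 UMIs, without thinning, put the Gbp2 fold at 0.14, within the limit. Among cells with an Isg15 UMI, Gbp2 at 6 h was at 2.61 (1.70 to 3.67), on 81 UMIs in 200 irradiated cells against 11 in 166 sham cells. In the same cells Irgm1 was at -1.90 (-3.03 to -0.88), on 11 UMIs against 34, and Igtp was at -0.04 (-0.52 to 0.45). Cells with Isg15 therefore differed in Gbp2 and Irgm1 in opposite directions between the libraries at 6 h. These cells were not matched for Isg15 level, and the Gbp2 UMIs were in 38 irradiated and 9 sham cells. Among them, 71 of 200 irradiated and 32 of 166 sham cells had 3 or more Isg15 UMIs. In those, Gbp2 was seen in 31.0% (20.5 to 43.1) and 21.9% (9.28 to 40.0), intervals that overlap. Irgm1 was seen in 11.3% (4.99 to 21) and 37.5% (21.1 to 56.3).

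At 1 week, among cells without an Isg15 UMI, Gbp7 was at 0.90 (0.60 to 1.20) and Irgm1 at 0.99 (0.37 to 1.65) in irradiated over sham cells. Irgm2 was at 0.48 (-0.09 to 1.07), Igtp at 0.33 (0.02 to 0.65) and Gbp2 at -0.04 (-1.02 to 0.98). The higher Gbp7 and Irgm1 at 1 week were thus present without Isg15. Cells without it were 1942 of 2026 irradiated and 1316 of 1369 sham cells. These folds therefore rest largely on the same cells as those over all cells, and the part of interferon in them was not tested. Isg15 itself was at 0.09 (-0.20 to 0.37) over all microglia-like cells at that time. Of 27 measured genes of the type I response, however, 10 were higher and 1 lower, against 3.98% and 3.10% of all genes. Isg15 levels were 169.2 CPM in the irradiated library at 6 h against 62.0 in its sham, and 32.6 in the irradiated library at 1 week against 30.7 in its sham.

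How often members were seen in the same cells was compared between pairs as a description. Of 138 cells with a Gbp2 UMI over the 4 thinned libraries, 25.4% also had Igtp, 22.5% Gbp7, 12.3% Gbp3 and 9.42% Irgm1, each above the cells without Gbp2 in all 4 libraries. Irgm2 was in 2.90%, which is 4 cells, and was above the cells without Gbp2 in 1 library of 4. The same count of 1 library held for Gbp3 with Irgm2 (5 cells) and Gbp7 with Irgm2 (40 cells). Gbp2 with Irgm1 rested on 13 cells, 2 of them in the irradiated library at 6 h (3.85% against 2.56% without Gbp2). With so few cells, the number of libraries above does not show that these pairs of Gbp2 and Gbp3 differed. Gbp7 with Irgm1, Gbp7 with Igtp and Irgm1 with Irgm2 were above in 3 libraries of 4, and the other pairs in all 4. Of 229 cells with Gbp3, 22.3% also had Gbp7, again above the cells without Gbp3 in 4 of 4 libraries. The genes whose pattern over cells was most like the summed members, by the mean Pearson r over the 4 libraries among 8348 genes, were Ifit3 (0.27), Isg15 (0.24), Ifi204 (0.22), Usp18 (0.20), Ifitm3 (0.20), Irf7 (0.18), Rtp4 (0.17) and Phf11b (0.16). All are induced by interferon, and the cells of a library share its depth and free RNA. These correlations in sparse counts are weak and serve as a description.

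The other inducible GTPases gave a further contrast at 6 h. Of 27 listed, 22 were matched in the files, 12 had at least 50 UMIs over the 4 libraries, 7 had fewer and 3 had none. In irradiated microglia at 6 h, 5 of 12 measured were past 1.5-fold higher and 0 lower, against 9.03% and 9.09% of all genes. They were the effector GTPases Ifi47 at 2.47 (1.73 to 3.28, 78 UMIs in irradiated against 19 in sham cells) and Iigp1 at 1.83 (1.27 to 2.43, 95 against 36), Gm4841 at 1.04 (0.20 to 1.91, 32 against 21), Gm4070 at 1.26 (0.68 to 1.86, 71 against 40) and the antiviral dynamin-like Mx1 at 0.72 (0.18 to 1.26, 67 against 55). The effectors Ifi47 and Iigp1 were thus higher in the library in which the regulators Irgm1 and Irgm2 were lower and Igtp was not past the limit. UMIs of Ifi47 and Iigp1 were in only 36 and 41 of its 1904 cells. Against the sham at 1 week, Irgm1 and Irgm2 were within the limit, at -0.14 and -0.07. Against the sham at 6 h, Gm4951 was at 0.50 (0.17 to 0.83), Gm5431 at 0.03, Irgq at 0.06, 9930111J21Rik1 at -0.11 and 9930111J21Rik2 at -0.02. The remaining guanylate-binding protein genes measured, Gbp5 and Gbp9, were at -0.35 (-1.07 to 0.34) and -0.34 (-0.82 to 0.12). Gm4070 shares 97.8% of its 50-base stretches with other genes, so its value is uncertain.

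At 1 week 6 of these 12 were measured and 0 were past 1.5-fold in either direction, against 3.98% of all genes higher and 3.10% lower. Gbp5 was at 0.42 (-0.31 to 1.19) and Gbp9 at 0.21 (-0.28 to 0.71) in irradiated over sham microglia. Gm4951 was at -0.18 (-0.83 to 0.48), 9930111J21Rik2 at -0.28 (-0.44 to -0.12), Irgq at -0.20 (-0.87 to 0.48) and Gm4070 at -0.51 (-1.29 to 0.28). Iigp1 and Ifi47 had 15 and 18 UMIs in irradiated microglia, against 13 and 6 in the sham, too few to be measured. In sham microglia at 1 week relative to sham at 6 h, Gm5431 was at -2.12 (-3.08 to -1.28) and Gm4951 at -1.22 (-1.78 to -0.70).

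**Figure D5:**
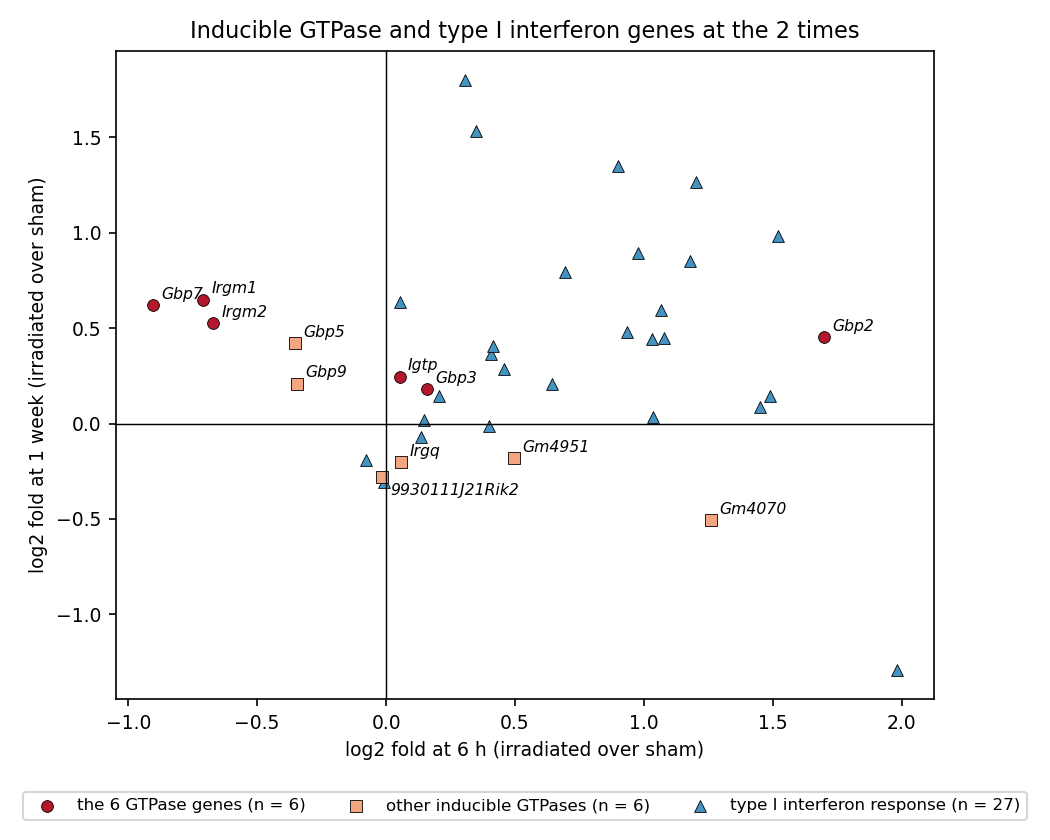
Log2 fold of irradiated over sham microglia at 6 h (horizontal axis) and at 1 week (vertical axis) for the 6 members, the 6 other inducible GTPases measured at both times and 27 genes of the type I interferon response. Gbp2 lies far to the right at 1.70 with 0.45 at 1 week, and Gbp7, Irgm1 and Irgm2 lie at upper left, below 0 at 6 h and above 0 at 1 week.

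The counts of the lists that follow can be read against the same shares of all genes, 9.03% higher and 9.09% lower at 6 h, and 3.98% higher and 3.10% lower at 1 week. Upstream of the GTPases, none of the 10 listed interferon ligand genes reached 50 UMIs. Ifnb1 had 1 UMI in irradiated microglia at 6 h against 8 in the sham library, and 0 in both libraries at 1 week. None of 7 receptor and kinase genes was past 1.5-fold at 6 h (median log2 fold -0.33), with Ifngr1, the ligand-binding chain of the interferon gamma receptor, at -0.51 (-0.55 to -0.46). Of 10 transcription factors, 2 were higher, Irf7 at 0.90 (0.70 to 1.10) and Stat2 at 0.67 (0.35 to 1.00). Irf1, a factor that binds the response element, had 27.5 CPM in irradiated microglia at 6 h against 39.9 in the sham (log2 fold -0.53, from -0.79 to -0.28), and 40.5 CPM in irradiated microglia at 1 week against 44.0 in the sham (-0.12, from -0.37 to 0.13). Irf1 and the 3 lower members therefore had the same direction at 6 h, and not at 1 week.

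Of 7 inhibitors, Usp18, which blocks the type I receptor, was higher at 6 h at 1.18 (0.94 to 1.42), and the cytokine-signalling suppressor Socs3 was lower at -0.82 (-0.92 to -0.72). None of 12 effector genes of cell-autonomous defence was past 1.5-fold at 6 h, and 1 was lower at 1 week, the inflammatory caspase gene Casp4 at -0.83 (-1.22 to -0.44). Of 31 measured genes of the type I response, 19 were higher and 0 lower at 6 h, with a median of 0.93, and at 1 week 10 of 27 were higher and 1 lower, with a median of 0.41. The genes of this list with the largest folds at 6 h were Ifi207, a PYHIN family gene, at 2.37 (1.92 to 2.85), the chemokine gene Cxcl10 at 1.98 and the antiviral genes Rsad2 at 1.79 and Oasl1 at 1.55. Of 12 measured genes typical of interferon gamma, 4 were higher and 0 lower at 6 h, with a median of 0.13. They were the chemokine gene Cxcl9 at 3.66 (56 UMIs in irradiated against 6 in sham cells), the checkpoint ligand gene Cd274 at 1.62 (41 against 18), Il18bp, which neutralises interleukin 18, at 1.23 (33 against 19), and the peptide transporter gene Tap1 at 1.03 (778 against 515). The list was split, since Irf1, Psmb8 at -0.51, Fcgr1 at -0.41, Psmb9 at -0.36 and Psmb10 at -0.27 were below 0, within the limit. Psmb8, Psmb9 and Psmb10, subunits of the immunoproteasome, and Fcgr1, an antibody receptor, were named after their values were seen.

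Several marker lists of other cells were near 0 in the microglia-like cells, and others were not. The 4 matched T cell markers summed to 0.28 CPM in irradiated microglia at 6 h against 0.10 in the sham, with Cd3e, Cd3g and Cd2 at 0, and 5 of 6 NK cell markers were at 0 in both. The 6 monocyte markers summed to 24.6 CPM in irradiated microglia at 6 h against 27.5 in the sham, and to 11.9 in irradiated microglia at 1 week against 10.2 in the sham, with Ly6c2 and Chil3 at 0 throughout. The 6 border macrophage markers summed to 12.9 CPM in irradiated microglia at 6 h against 18.8 in the sham, and to 22.8 in irradiated microglia at 1 week against 12.6 in the sham, with Cd163 and Lyve1 at 0 throughout. The border macrophage sum moved in the direction of Gbp7, Irgm1 and Irgm2 at both times, but most of its UMIs were of Mrc1 alone. At 6 h Mrc1 had 7.41 CPM in irradiated against 15.6 in sham microglia, and Cbr2 1.12 against 1.35. Ms4a7 at 2.52 against 0.52 and Pf4 at 1.82 against 1.35 went the other way. The 6 astrocyte markers summed to 261.8 CPM in irradiated microglia at 6 h against 149.2 in the sham, and to 180.4 in irradiated microglia at 1 week against 143.9 in the sham. The 6 B cell markers summed to 39.8 CPM in irradiated microglia at 6 h against 89.6 in the sham, and to 68.2 in irradiated microglia at 1 week against 75.1 in the sham, with Pax5 at 0 throughout. The astrocyte sum had the direction of Gbp2 at 6 h and the B cell sum that of Gbp7, Irgm1 and Irgm2 at that time. In irradiated microglia at 6 h, Slc1a3 alone gave 1763 of 1873 astrocyte marker UMIs and Cd79b alone 282 of 285 B cell marker UMIs. The part of the astrocyte and B cell markers in these differences was not tested.

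Cells with no UMI of the markers of 7 other cell types, namely border macrophages, monocytes, dendritic, T and NK cells, endothelial cells and pericytes, were also compared on their own. In those cells at 6 h Gbp2 was at 1.13 on the log2 scale, Gbp7 at -0.91, Irgm1 at -0.74 and Irgm2 at -0.74 in irradiated over sham. The Gbp2 value was below its counting interval over all microglia-like cells (1.32 to 2.09). At 1 week Gbp7 was at 0.76, Irgm2 at 0.63 and Gbp2 at 0.93, all past 1.5-fold, and Irgm1 at 0.45 was no longer past it. Against the sham of 1 week, Gbp7 in irradiated cells at 6 h was at -0.56, just within the limit.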

How the data were processed

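Each deposited matrix lists the UMI count of a gene in a barcode, without normalisation. The submitters' processing notes name Cell Ranger 2.0 and the genome build mm10. How the authors' barcodes were separated from empty droplets, and which annotation release was used, is not given in the sources used here. Barcodes were kept from 1000 UMIs and 500 genes with at most 10% mitochondrial UMIs, which removed 117 of 8486. Scrublet, run per library in scanpy 1.11.5 at an expected rate of 0.06, marked 45 barcodes as doublets (0.54%), far under that rate, so missed doublets can remain among the cells.

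All libraries were clustered jointly with leidenalg 0.10.2 at resolution 1, from 15 neighbours in 30 principal components of 2000 variable genes. A cluster was microglia-like from 7 of 9 markers at 50 CPM, unless at least 3 markers of another cell type were at 50 CPM and 1.5-fold over the other clusters. The cluster led by Pf4 and Vtn and the one led by H2-Aa had at least 3 markers of border macrophages and of monocytes at 1.5-fold.

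UMIs were summed per library and scaled to CPM, with exact Poisson intervals. Folds carry the exact conditional binomial 95% interval, shares of cells the exact binomial (Clopper-Pearson) one, from scipy 1.17.1, and all cover counting error only. The fold calculation was tested on simulated data. Thinning drew 2000 UMIs from each cell without replacement.

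The genes named are the 6 members, other inducible GTPases with 50 UMIs over the 4 libraries, Isg15, Irf1 and Cdkn1a, at most 4 genes with the largest folds from each of the other lists, and the 8 genes most like the summed members. One further gene of the rule is not reported here. The members and lists were chosen with earlier results of these data known. Of the listed and marker symbols, 7 were not matched in the files. Promoter sequences come from the RefSeq table of GRCm38.p6, and gene coordinates from GENCODE vM21 of GRCm38, the build that mm10 names. Other cell filters, scalings, limits and depths of thinning were tried.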

Additional observations from a re-analysis of the deposited data

Results flagged for a closer look

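Gbp7, Irgm1 and Irgm2 stood on opposite sides of 0 in irradiated over sham microglia at 6 h and at 1 week. Gbp7 had log2 folds of -0.90 at 6 h and 0.62 at 1 week, Irgm1 of -0.71 and 0.65, and Irgm2 of -0.67 and 0.53. In each of these the counting interval did not include 0. With 1 library per group the difference between the times was not tested, and the part of each sham library in it cannot be told apart from that of irradiation.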

How the results depend on the processing

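No paired analysis was possible because each group had 1 library. The number of members past the limit moved by over 1.5 times as follows. With a fold limit of 2 it was 1 for irradiated over sham at 6 h, 0 at 1 week, 0 for the later over the earlier sham library, 2 for irradiated at 1 week over irradiated at 6 h and 1 for irradiated at 6 h over sham at 1 week. With a lower fold limit it was 4 for irradiated over sham at 1 week, 3 for the later over the earlier sham and 1 for irradiated at 1 week over sham at 6 h. The count between the shams was 2 with the stricter barcode filter (2000 UMIs, 1000 genes, 5% mitochondrial), 2 in cells with no UMI of markers of 7 other cell types, 2 without cells of 3 or more Isg15 UMIs and 0 with scaling by the median ratio. For irradiated at 6 h over sham at 1 week it was 1 in cells with no such marker UMI and 1 without cells of any Isg15 UMI, a filter chosen after seeing the data.

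Gbp2 depended on the cells with Isg15. Its log2 fold at 6 h was 0.14 without cells of 3 or more Isg15 UMIs and -0.65 without cells of any, and between the irradiated libraries, 1 week over 6 h, it was -0.31 and 0.35. In cells with no UMI of markers of 7 other cell types, the Gbp2 log2 fold at 6 h was 1.13, also below its counting interval. Of 252 values of the members' folds under these alternatives, 235 stayed within the counting interval, and of 46 values of folds between cells with and without Isg15, 37 did. Many alternatives reuse most of the same UMIs, so staying within the interval is weak evidence of robustness. Without cells of any Isg15 UMI, the count at 6 h stayed at 4 but became 0 higher and 4 lower. Of 48 shares of cells, 45 moved with the depth of thinning, since a share of cells with a UMI depends on it. Scaling by the median ratio shifted log2 folds by at most 0.06, which took Irgm2 in irradiated microglia at 1 week over 6 h to 0.54 and between the shams to -0.56, both within the limit. With 1 library per group, spread between mice is unknown, and members with under 100 UMIs in a library have wide intervals.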
